A study of Mus musculus with 24 samples.

Results

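Messenger RNA levels of the renin-angiotensin genes Ren1, Agt, Ace and Agtr1a and of the brush-border peptidase genes Enpep, Mme, Anpep and Dpp4 were followed through obstruction of the mouse kidney and its release. The 8 genes were taken by symbol from the deposited table, in which all 8 had a row among 14785 genes. Polyadenylated RNA was sequenced from 24 kidneys of male C57/BL6 mice, labelled as 8 weeks old, in 6 groups of 4. The groups were sham surgery, unilateral ureter obstruction (UUO, ligation of a ureter) for 2 days (UUO2) or 7 days (UUO7), and 7 days of obstruction followed by reimplantation of the ureter and 1, 2 or 4 weeks of recovery (R1W, R2W, R4W). All 24 animals had surgery, the 3 recovery groups had a further operation, and the labels give the sham group no time point. The 4 kidneys of a group were selected from 10 animals, by a criterion not given in the sources used here. The series title speaks of cortical kidney, whereas the sample labels say kidney. R4W replicate 2 is a 4-week kidney by its title and a 2-week kidney by its treatment label, and it was grouped by title.

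Renin, the product of Ren1, is released by juxtaglomerular cells of the afferent arteriole and cleaves angiotensinogen (Agt) to angiotensin I. Angiotensin-converting enzyme (Ace) then forms angiotensin II, which acts on the type 1a receptor (Agtr1a). The luminal membrane of the proximal tubule, the brush border, carries peptidases that cut angiotensins and other filtered peptides, among them Ace itself, aminopeptidase A (Enpep), neprilysin (Mme), aminopeptidase N (Anpep) and dipeptidyl peptidase 4 (Dpp4).

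The members did not move as one group. Ren1, Ace and Mme were lower than sham after 2 days of obstruction while Agt was higher. After 7 days Ace, Enpep, Mme and Anpep were lower than sham, and Ren1 was higher than at 2 days. After 4 weeks of recovery Mme and Enpep were above their UUO7 levels, and Ace was above its UUO7 level but still below sham. Each of these differences passed the test on both scalings described next.

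Levels are FPKM, fragments per kilobase of transcript scaled to library depth, a unit inferred from the values. Changes are log2 differences of group means of log2(FPKM + 1), tested with limma over all 14785 genes at a Benjamini-Hochberg adjusted p under 0.05. FPKM is relative to the whole library, and the median of all genes lay above sham by 0.09 in UUO2, 0.42 in UUO7, 0.37 in R1W, 0.32 in R2W and 0.30 in R4W on the log2 scale. The fit was therefore repeated with a scaling factor per library, the median over genes of the ratio between the library's value and the geometric mean of all libraries. For many results both values are given, as deposited and rescaled. A single value is as deposited unless it is marked as rescaled or as the authors'. Comparisons against sham share the same 4 sham kidneys, and those against UUO7 share the UUO7 kidneys.

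The libraries differed in ways that touch these results. Low values fell on whole-read steps in 20 libraries, at implied depths of 24.3 to 35.4 times 1e6 fragments. None of the 4 UUO2 libraries showed such steps, so their depth is unknown. Mitochondrial ribosomal RNA (mt-Rnr1) reached 2343 to 2832 FPKM in those 4, beside 342 to 709 in the rest. In every comparison with UUO2 the group and its kind of library cannot be told apart. The summed level of 5 adipose markers was 291 FPKM in sham replicate 2, 1644 in R4W replicate 1 and 402 in R4W replicate 3, and between 37.9 and 192 in the other libraries. Markers of the proximal tubule were present in every library, with none of the 8 at 0.

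After 2 days of obstruction 1 member was called higher than sham and 3 lower, where 32.3% and 17.0% of all genes were. On rescaled libraries the members were 1 and 5, against 25.3% and 25.5% of all genes. After 7 days 2 were called higher and 4 lower, against 60.1% and 17.8%, and rescaled 0 and 5, against 36.5% in each direction. From UUO2 to UUO7 1 was called higher and 3 lower, against 52.0% and 14.7%, and rescaled 1 and 6, against 30.0% and 31.9%. At 7 days, as deposited, 4 of 8 lower members stand beside a background of 17.8%, with a median change over the members of -0.33 beside 0.42 over all genes.

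In recovery, R1W against UUO7 gave 1 member higher and 0 lower on both scalings, where 6.47% and 8.04% of all genes were called as deposited and 7.26% and 7.14% rescaled. R4W against UUO7 gave 3 higher and 2 lower, against 17.6% and 30.8%, and rescaled 4 and 1, against 25.1% and 23.2%. Against sham, R1W gave 2 higher and 2 lower (59.4% and 14.7% of all genes), R2W gave 0 and 1 (56.1% and 12.9%), and R4W gave 1 and 2 (54.8% and 11.6%). On rescaled libraries R1W gave 0 and 5 (33.7% and 34.6%), R2W gave 0 and 5 (31.1% and 32.5%), and R4W gave 0 and 4 (28.9% and 31.1%). R4W against R1W gave 1 higher and 1 lower, against 5.06% and 14.1%, and the same counts rescaled, against 8.67% and 8.60%. The plot of level by group shows the values behind these counts, and the plot of changes shows how far rescaling moves each of them.

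**Figure D1:**
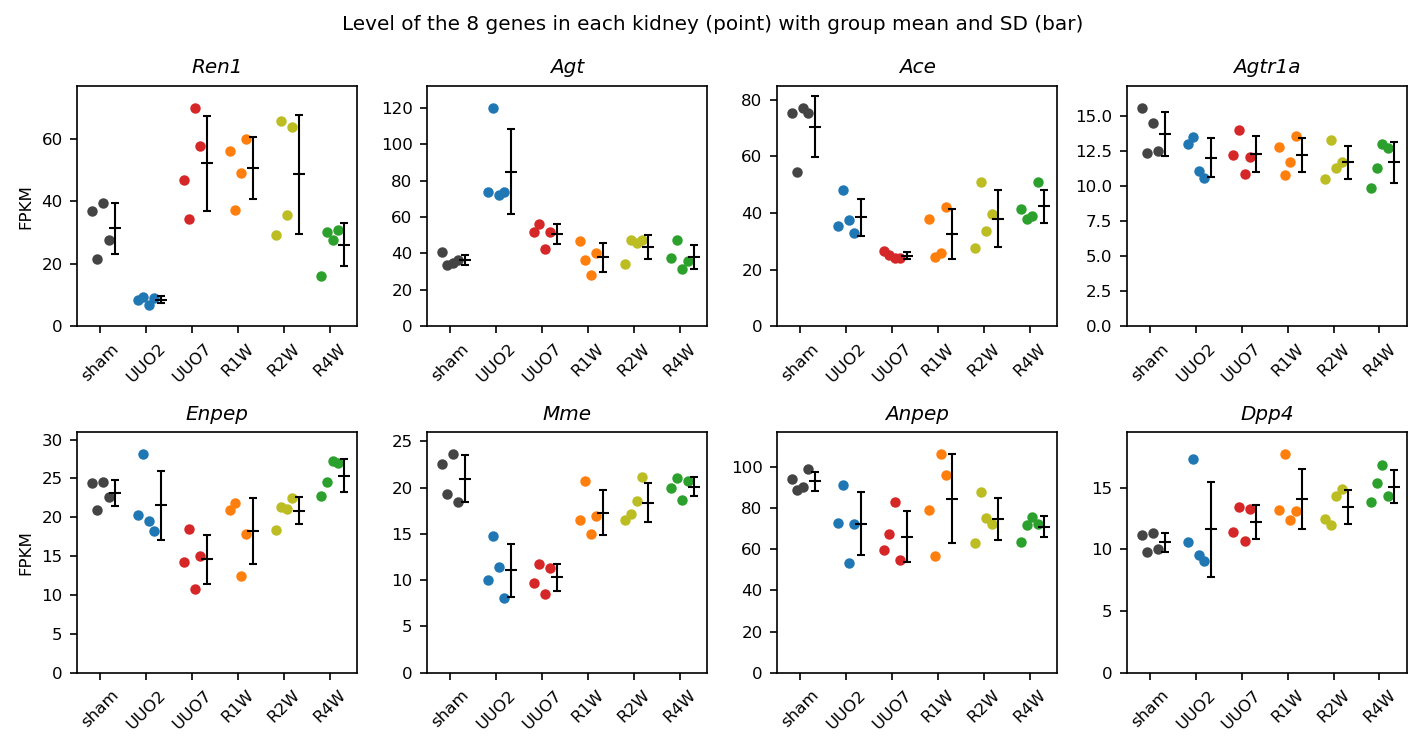
FPKM (y axis, from 0) of each of the 8 genes in the 6 groups (x axis); each point is 1 kidney and the bar beside it is the group mean with its SD over 4 kidneys. Ren1 is lowest in UUO2 (8.45 FPKM on average), Ace is highest in sham (70.6 FPKM), and Agtr1a lies between 9.84 and 15.6 FPKM throughout.

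**Figure D2:**
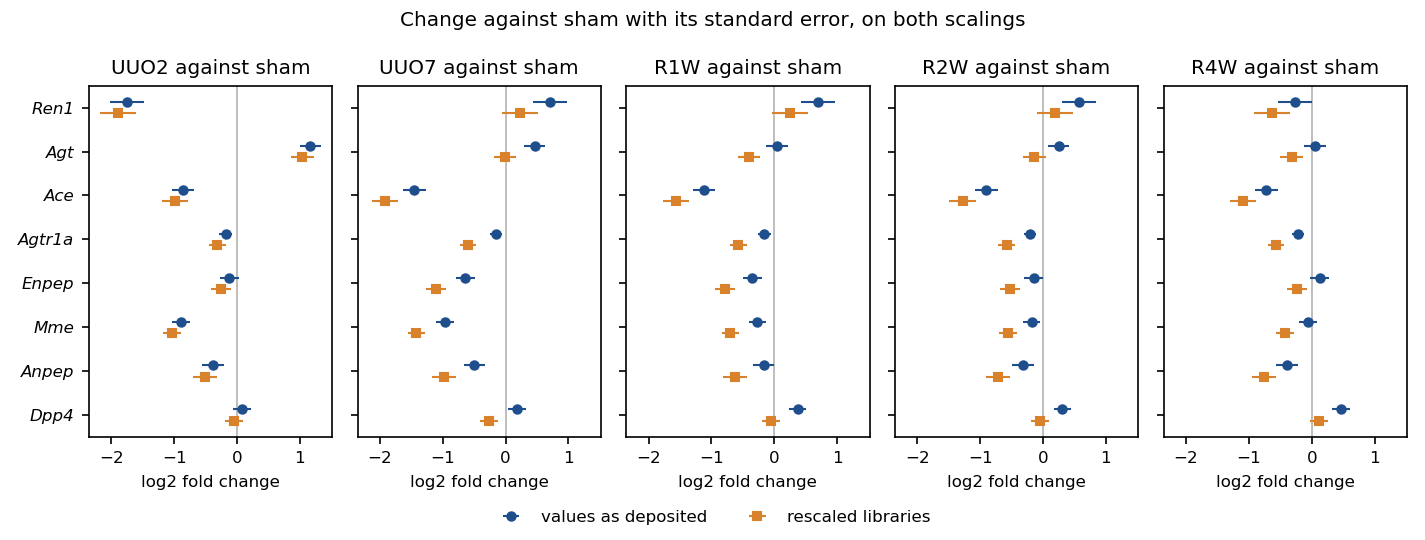
Log2 change against sham (x axis) of each gene (rows) in the 5 other groups (panels), as deposited (circles) and after rescaling (squares), with the standard error from limma. Ace is to the left of 0 in all 5 panels on both scalings, and Agt and Dpp4 cross 0 between the scalings in several.

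Ren1 (ENSMUSG00000070645.5, chromosome 1, 133350510 to 133360325, plus strand, mm10) fell after 2 days of obstruction. It was 36.9, 21.7, 39.4 and 27.7 FPKM in the 4 sham kidneys and 8.33, 9.34, 6.91 and 9.20 FPKM in UUO2. All 4 UUO2 kidneys lay below the lowest sham kidney. The UUO2 mean of 8.45 ± 1.12 FPKM (SD, n = 4) was 0.269 of the sham mean of 31.4 ± 8.21. The log2 change was -1.75 with an SE of 0.27 (adjusted p = 1.8e-05), and -1.89 rescaled (adjusted p = 2.2e-05).

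After 7 days Ren1 was 46.8, 34.5, 70.0 and 57.7 FPKM. Every UUO7 kidney lay above every UUO2 kidney, and the range overlapped that of sham. Ren1 was 6.19 times higher in UUO7 than in UUO2, a log2 change of 2.46 with an SE of 0.27 (adjusted p = 1.08e-07), and 2.13 rescaled (adjusted p = 2.79e-06). Against sham the change was 0.71 (adjusted p = 0.0201) as deposited and 0.23 (adjusted p = 0.483) rescaled, so a rise over sham was called on 1 of the 2 scalings. The deposited call was also lost without sham replicate 2 (0.55, adjusted p = 0.0790), UUO7 replicate 3 (0.55, adjusted p = 0.0788) or UUO7 replicate 4 (0.65, adjusted p = 0.0520). Leaving out the libraries high in adipose markers lost it as well (0.55, adjusted p = 0.0647).

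The 4 R1W kidneys lay within the UUO7 range of Ren1, and R2W replicate 1 lay below it. R1W kidneys had 56.2, 37.3, 49.0 and 60.1 FPKM, and R2W kidneys 29.1, 65.9, 35.8 and 64.0 FPKM. R1W differed from UUO7 by -0.02 (adjusted p = 0.968). R1W against sham was 0.69 (adjusted p = 0.0249) as deposited and 0.25 (adjusted p = 0.455) rescaled. This call was lost without sham replicate 2 (0.53), sham replicate 4 (0.64), R1W replicate 1 (0.63) or R1W replicate 4 (0.60). Leaving out the libraries high in adipose markers lost it as well (0.53, adjusted p = 0.0781). R2W against sham was 0.57 (adjusted p = 0.0630) and was called only in the fits without sham replicate 3 (0.69), R2W replicate 1 (0.78) or R2W replicate 3 (0.68).

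By 4 weeks Ren1 was 16.1, 30.1, 27.5 and 30.9 FPKM, and all 4 kidneys lay below the lowest kidney of UUO7 and of R1W. The mean of 26.1 ± 6.87 FPKM was 0.500 of the UUO7 mean, a log2 change of -0.97 (SE 0.27, adjusted p = 0.00529), and -0.86 rescaled (adjusted p = 0.0199). Against R1W the change was -0.95 (adjusted p = 0.0197), and -0.88 rescaled (adjusted p = 0.0438). R4W replicate 1, the kidney with 1644 FPKM of adipose markers, was the lowest of the group. With the 3 libraries high in adipose markers left out the changes were -0.71 (adjusted p = 0.0656) against UUO7 and -0.69 (adjusted p = 0.155) against R1W. The call against R1W was also lost without R1W replicate 3 (-0.96, adjusted p = 0.0614), R1W replicate 4 (-0.86, adjusted p = 0.0505) or R4W replicate 1 (-0.74, adjusted p = 0.0734), and in the fit on the 2 groups alone (-0.95, adjusted p = 0.0589). Against sham R4W differed by -0.26 (adjusted p = 0.391), and by -0.63 rescaled (adjusted p = 0.0694).

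Akr1b7, a gene of renin-producing cells, was lowest in UUO2 and highest in UUO7 as deposited, as was Ren1, although Ren1 was highest in R2W rescaled. It averaged 2.92 FPKM in sham, 1.29 in UUO2, 6.95 in UUO7, 5.21 in R1W, 5.21 in R2W and 4.76 in R4W. It was called lower in UUO2 (-0.78, rescaled -0.91) and higher in UUO7 (1.01, rescaled 0.62). R4W kidneys had more Akr1b7 than sham as deposited (0.55, adjusted p = 0.00156), with 0.25 rescaled (adjusted p = 0.117), while Ren1 was not called in that comparison. The summed level of Akr1b7 and the arteriolar connexins Gja4 and Gja5 was 6.26 to 7.94 FPKM in sham, 3.87 to 6.58 in UUO2, 14.7 to 18.0 in UUO7 and 13.7 to 15.7 in R4W. It was 11.7 to 13.3 in R1W and 11.7 to 18.3 in R2W. Gja4 and Gja5 were not called in UUO2, at 2.21 and 1.23 FPKM beside 2.51 and 1.77 in sham. All 3 genes were called above sham in UUO7 and R4W as deposited, where 60.1% and 54.8% of all genes were. Rescaled, 3 and 2 were, against 36.5% and 28.9%. The part of renin-producing and arteriolar cells in the Ren1 values was not tested, and in whole tissue fewer cells of a type and less RNA per cell cannot be told apart.

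Agt (ENSMUSG00000031980.9, chromosome 8, 124556534 to 124569706, minus strand), which encodes the only known substrate of renin, moved opposite to Ren1 after 2 days. It was 40.6, 33.9, 34.8 and 36.2 FPKM in sham and 74.0, 120, 72.2 and 73.8 FPKM in UUO2. Every UUO2 kidney exceeded every other kidney of the series. Agt was 2.34 times higher than sham, a log2 change of 1.17 with an SE of 0.17 (adjusted p = 7.69e-06), and 1.04 rescaled (adjusted p = 8.03e-05).

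Agt was lower in UUO7 than in UUO2, at 51.8, 56.4, 42.7 and 51.8 FPKM (log2 change -0.71, adjusted p = 0.000830; rescaled -1.05, adjusted p = 3.93e-05). The UUO7 kidneys lay above all sham kidneys as deposited (0.46, adjusted p = 0.0150), but the rescaled difference was -0.01 (adjusted p = 0.952). In recovery Agt averaged 37.9 ± 7.92 FPKM in R1W, 43.6 ± 6.38 in R2W and 38.0 ± 6.71 in R4W, beside 36.4 ± 2.97 in sham. None of the 3 recovery groups was called against sham on either scaling, and all 3 differences changed sign with rescaling. R4W was called below UUO7 as deposited (-0.42, adjusted p = 0.0430) but not rescaled (-0.31, adjusted p = 0.164). The deposited call was lost in 6 of 8 fits that each left out 1 kidney (-0.52 to -0.33 over the 8): those without UUO7 replicate 1, 2 or 4, or R4W replicate 1, 3 or 4.

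Ace (ENSMUSG00000020681.14, chromosome 11, 105967945 to 105989964, plus strand) was below sham in all 5 other groups on both scalings. It was 75.4, 54.6, 77.2 and 75.2 FPKM in sham and 26.5, 25.3, 24.2 and 24.0 FPKM in UUO7. The lowest sham kidney had more Ace than any kidney of another group. After 7 days the mean fell to 0.354 of sham, from 70.6 ± 10.7 to 25.0 ± 1.16 FPKM, a log2 change of -1.45 with an SE of 0.18 (adjusted p = 2.57e-07), and -1.92 rescaled (adjusted p = 6.93e-08). The fall was already called after 2 days, when the kidneys had 35.6, 48.0, 37.5 and 33.0 FPKM (-0.86, adjusted p = 0.000471; rescaled -0.99). UUO7 lay below UUO2 (-0.59, adjusted p = 0.00628; rescaled -0.93).

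Recovery of Ace was partial in these data. R1W kidneys had 37.9, 24.3, 26.0 and 42.2 FPKM, R2W kidneys 27.6, 51.0, 33.7 and 39.8, and R4W kidneys 41.4, 38.0, 39.1 and 50.9. R1W replicates 2 and 3 lay within the UUO7 range, and all 4 R4W kidneys lay above it. R4W rose above UUO7 by 0.73 (adjusted p = 0.00227; rescaled 0.83). Against sham the change was -1.12 in R1W (adjusted p = 1.13e-05), -0.90 in R2W (adjusted p = 0.000167) and -0.72 in R4W (adjusted p = 0.00148), and rescaled -1.56, -1.28 and -1.09. At 4 weeks the mean was 0.600 of sham as deposited and 0.460 rescaled. R4W against R1W was not called (0.40, adjusted p = 0.119).

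Ace was highest in sham and lowest in UUO7, and so was the summed level of proximal tubule markers. The summed level of 8 such markers (Slc34a1, Slc5a2, Slc5a12, Lrp2, Cubn, Aqp1, Slc22a6 and Slc13a3) was 3846 to 4379 FPKM in sham, 1665 to 2849 in UUO2, 913 to 1127 in UUO7, 1301 to 2082 in R1W, 1417 to 2601 in R2W and 2046 to 2812 in R4W. Of the 8 single markers 7 had their highest mean in sham, and Slc5a12 had it in UUO2 (51.7 ± 9.30 FPKM, beside 40.4 ± 9.14 in sham). Over the 24 libraries, which share groups and scaling, log2 Ace and the log2 marker sum had a Pearson r of 0.96. The other members had lower values, with Enpep at 0.73, Mme at 0.65, Anpep at 0.55, Agtr1a at 0.47, Dpp4 at -0.10, Agt at -0.16 and Ren1 at -0.21. The part of the proximal tubule's share of RNA in the Ace values was not tested.

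**Figure D3:**
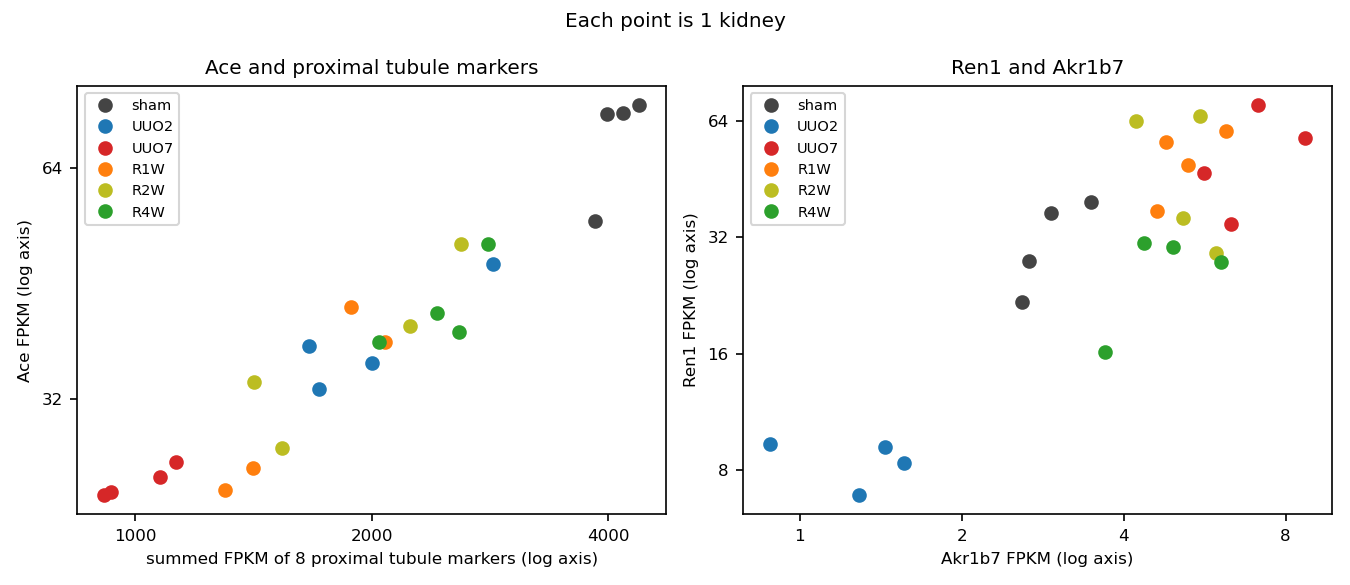
Left, Ace FPKM (y axis) against the summed FPKM of 8 proximal tubule markers (x axis); right, Ren1 FPKM (y axis) against Akr1b7 FPKM (x axis). Each point is 1 kidney, colours are groups and all axes are logarithmic. UUO7 sits at the low end and sham at the high end of the left panel, and the 4 UUO2 kidneys sit apart at the low end of the right panel.

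Promoter sequences are shown for Ren1, Agt and Ace, the 3 genes of the cascade that were called at 2 days on both scalings. The windows run 5′ to 3′ from 250 bases before to 50 bases after the start site in RefSeq (GRCm38.p6), which held windows for 7 of the 8 members and 10 in all. Capitals mark TATAAA, the core of the TATA box, or its reverse complement TTTATA. They lie at chr1:133350424-133350723 (plus strand), chr8:124569657-124569956 (minus strand) and chr11:105967698-105967997 (plus strand).
Ren1: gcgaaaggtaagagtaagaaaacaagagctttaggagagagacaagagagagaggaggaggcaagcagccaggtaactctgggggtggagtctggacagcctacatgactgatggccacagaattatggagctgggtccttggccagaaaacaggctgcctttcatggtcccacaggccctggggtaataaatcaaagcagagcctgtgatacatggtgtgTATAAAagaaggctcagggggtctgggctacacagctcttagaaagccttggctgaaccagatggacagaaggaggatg
Agt: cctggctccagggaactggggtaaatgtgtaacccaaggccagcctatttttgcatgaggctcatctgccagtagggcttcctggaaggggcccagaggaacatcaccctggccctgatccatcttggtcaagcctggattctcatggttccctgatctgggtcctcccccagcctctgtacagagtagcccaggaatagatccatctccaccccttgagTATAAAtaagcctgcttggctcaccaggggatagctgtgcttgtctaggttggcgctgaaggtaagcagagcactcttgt
Ace: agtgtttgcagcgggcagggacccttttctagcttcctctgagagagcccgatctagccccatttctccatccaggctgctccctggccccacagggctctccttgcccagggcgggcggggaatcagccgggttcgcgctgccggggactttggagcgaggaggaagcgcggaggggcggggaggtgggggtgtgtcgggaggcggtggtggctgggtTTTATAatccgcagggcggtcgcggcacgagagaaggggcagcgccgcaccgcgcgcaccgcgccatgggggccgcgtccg

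TATAAA began 29 bases before the start site in Ren1 and 30 bases before it in Agt, and the reverse complement began 31 bases before it in Ace. With both strands searched, TATAAA was in 5 of the 10 windows (1 each of Ren1, Agt, Ace, Enpep and Dpp4) and in 13.6% of 32851 RefSeq windows of the same 300 bases. In Enpep it lay 52 bases and 1 base before the start site and in Dpp4 227 bases before it. GTTAAT, a half-site of the tubular factor HNF1, was in 0 of the 10 windows and in 7.10% of all. Both motifs were chosen after the windows had been seen, and a match is a description of letters.

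Agtr1a (ENSMUSG00000049115.15, chromosome 13, 30336441 to 30382867, plus strand), the main angiotensin II receptor gene of the rodent kidney, was not called in any of the 9 comparisons as deposited. Sham kidneys had 15.6, 12.4, 14.5 and 12.5 FPKM, UUO7 kidneys 12.2, 14.0, 10.9 and 12.1, and R4W kidneys 9.84, 11.3, 13.0 and 12.7. The ranges of the 5 other groups all overlapped sham. As deposited the changes against sham lay between -0.22 and -0.15. R2W was called below sham without sham replicate 2 (-0.26, adjusted p = 0.0487) or R2W replicate 2 (-0.27, adjusted p = 0.0321), and R4W without sham replicate 2 (-0.26, adjusted p = 0.0470) or R4W replicate 3 (-0.27, adjusted p = 0.0424). R2W was also called with R4W replicate 2 placed in it (-0.22, adjusted p = 0.0488) and without the libraries high in adipose markers (-0.26, adjusted p = 0.0436). Rescaled, Agtr1a was called below sham in all 5 groups, by -0.31 in UUO2 (adjusted p = 0.0474), -0.60 in UUO7 (adjusted p = 0.000221), -0.57 in R1W and R4W, and -0.58 in R2W. Whether Agtr1a is described as level or as lowered thus depends on the scaling. The authors' deposited table gave it below sham by -0.66 in UUO7 (adjusted p = 1.03e-06), -0.63 in R1W (adjusted p = 0.000325) and -0.64 in R2W (adjusted p = 0.000203). There it was -0.61 in R4W (adjusted p = 3.57e-05) and -0.30 in UUO2 (adjusted p = 0.0849).

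The peptidase Mme (ENSMUSG00000027820.12, chromosome 3, 63241537 to 63386030, plus strand) fell early and rose after release. It was 22.6, 19.3, 23.6 and 18.4 FPKM in sham, 10.0, 14.8, 11.4 and 8.08 in UUO2 and 9.75, 11.7, 8.49 and 11.3 in UUO7. Both obstructed groups lay below every sham kidney. The log2 change against sham was -0.89 in UUO2 (SE 0.14, adjusted p = 1.77e-05; rescaled -1.03) and -0.96 in UUO7 (SE 0.14, adjusted p = 1.49e-06; rescaled -1.42).

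One week after release Mme was 16.5, 20.7, 15.0 and 16.9 FPKM, with all 4 kidneys above UUO7. It was the only member called between R1W and UUO7, at 0.69 (SE 0.14, adjusted p = 0.00307), and rescaled at 0.72 (adjusted p = 0.00404). In that comparison Enpep was called without R1W replicate 3 (0.45, adjusted p = 0.0332) and Anpep without R1W replicate 2 (0.51, adjusted p = 0.0316). At 4 weeks it was 20.0, 21.0, 18.7 and 20.7 FPKM, 1.95 times UUO7 (0.91, adjusted p = 3.19e-05; rescaled 1.01). The R4W mean of 20.1 ± 1.00 FPKM differed from the sham mean of 21.0 ± 2.49 by -0.06 (adjusted p = 0.729) as deposited, and by -0.42 (adjusted p = 0.0143) rescaled. R1W and R2W against sham were likewise not called as deposited (-0.27, adjusted p = 0.0737, and -0.18, adjusted p = 0.234) and called lower rescaled (-0.70 and -0.56). The R1W value was called with a pseudocount of 10 (-0.19, adjusted p = 0.0492) and without the UUO2 libraries (-0.27, adjusted p = 0.0314). It was also called without sham replicate 4 (-0.33, adjusted p = 0.0493) or R1W replicate 2 (-0.36, adjusted p = 0.0282).

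Enpep (ENSMUSG00000028024.14, chromosome 3, 129269175 to 129332720, minus strand), whose product trims angiotensin II, was lower at 7 days but was not called at 2 days. It was 24.4, 21.0, 24.5 and 22.6 FPKM in sham, 20.3, 28.1, 19.5 and 18.3 in UUO2 and 14.2, 18.5, 10.8 and 15.0 in UUO7. UUO2 overlapped sham (-0.12, adjusted p = 0.567; rescaled -0.25, adjusted p = 0.217), whereas every UUO7 kidney lay below sham (-0.64, adjusted p = 0.000737; rescaled -1.11). UUO7 against UUO2 itself was called at -0.53 (adjusted p = 0.00505; rescaled -0.86).

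Enpep then rose during recovery. R1W kidneys had 20.9, 21.8, 12.5 and 17.8 FPKM, R2W kidneys 18.4, 21.3, 21.1 and 22.5, and R4W kidneys 22.7, 24.6, 27.2 and 27.0. All 4 R4W kidneys lay above UUO7 and above R1W. R4W exceeded UUO7 by 0.77 (adjusted p = 0.000444; rescaled 0.87) and R1W by 0.48 (adjusted p = 0.0362; rescaled 0.55). The call against R1W was lost without R1W replicate 3 (0.32) or 4 (0.48), without R4W replicate 2 (0.49), 3 (0.45) or 4 (0.45), and without the 3 libraries high in adipose markers (0.51, adjusted p = 0.128). It was also lost with R4W replicate 2 placed in R2W (0.49, adjusted p = 0.0513) and in the fit on the 2 groups alone (0.48, adjusted p = 0.0958). R1W was below sham by -0.35 (adjusted p = 0.0452; rescaled -0.78, adjusted p = 0.000256). That deposited call was lost without sham replicate 1 (-0.33), 3 (-0.32) or 4 (-0.36) or R1W replicate 3 (-0.19) or 4 (-0.35). The fit on the 2 groups alone lost it too (-0.35, adjusted p = 0.0767). At 4 weeks Enpep was not called against sham on either scaling, at 0.13 (adjusted p = 0.476) and -0.24 (adjusted p = 0.219).

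Anpep (ENSMUSG00000039062.15, chromosome 7, 79821803 to 79861059, minus strand) had the highest FPKM of the 8 members in 5 of the 6 groups. It was 93.9, 88.6, 90.0 and 99.1 FPKM in sham and 59.6, 67.1, 82.9 and 54.6 in UUO7, all 4 below sham. The log2 change in UUO7 was -0.50 (SE 0.17, adjusted p = 0.00982; rescaled -0.98, adjusted p = 9.47e-05). In UUO2 the kidneys had 72.9, 91.2, 53.3 and 72.2 FPKM, and the change was -0.38 (adjusted p = 0.0663) as deposited and -0.51 (adjusted p = 0.0290) rescaled. It was also called as deposited without UUO2 replicate 2 (-0.50, adjusted p = 0.0193).

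The spread of Anpep was widest in R1W, at 79.2, 56.5, 106 and 96.2 FPKM. R2W kidneys had 62.9, 87.8, 75.3 and 72.0 FPKM and R4W kidneys 63.6, 71.8, 75.8 and 72.2, both groups wholly below sham. As deposited R4W was called below sham by -0.39 (adjusted p = 0.0468), a call that was lost in all 8 fits that each left out 1 kidney (-0.42 to -0.34), with the replicate number as a block (-0.39, adjusted p = 0.0604), with R4W replicate 2 placed in R2W (-0.40, adjusted p = 0.0634) and without the libraries high in adipose markers (-0.38, adjusted p = 0.161). Rescaled, R1W (-0.62), R2W (-0.71) and R4W (-0.76, adjusted p = 0.00170) were all called lower. R1W was not called as deposited (-0.17, adjusted p = 0.360). As deposited R2W (-0.32, adjusted p = 0.0911) was called without R2W replicate 2 (-0.41, adjusted p = 0.0495) and in the fit on the 2 groups alone (adjusted p = 0.0162). R4W against UUO7 was not called on either scaling, at 0.11 (adjusted p = 0.595) and 0.22 (adjusted p = 0.346).

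Dpp4 (ENSMUSG00000035000.8, chromosome 2, 62330073 to 62412231, minus strand), a peptidase that inactivates incretin hormones, was not called below sham in any group on either scaling. It was 11.2, 9.81, 11.3 and 10.0 FPKM in sham, 11.4, 13.4, 10.7 and 13.3 in UUO7, 13.2, 17.7, 12.4 and 13.1 in R1W and 13.8, 15.4, 16.8 and 14.3 in R4W. As deposited every R1W and R4W kidney lay above sham, and the changes were 0.37 (adjusted p = 0.0262) and 0.47 (adjusted p = 0.00720). Rescaled they were -0.05 (adjusted p = 0.784) and 0.12 (adjusted p = 0.480). The R1W call was lost without sham replicate 2 (0.34), sham replicate 4 (0.34) or R1W replicate 2 (0.26). Without the libraries high in adipose markers neither was called, at 0.34 (adjusted p = 0.0723) and 0.42 (adjusted p = 0.0752). R2W against sham was 0.31 (adjusted p = 0.0584; rescaled -0.05), and was called without R2W replicate 2 (0.36, adjusted p = 0.0455), without the UUO2 libraries (adjusted p = 0.0135), in the fit on the 2 groups alone (adjusted p = 0.0123) and with R4W replicate 2 placed in R2W (0.35, adjusted p = 0.0289). R4W against UUO7 was called rescaled (0.39, adjusted p = 0.0315) but not as deposited (0.29, adjusted p = 0.106), and was called without the UUO2 libraries (adjusted p = 0.0324) or in the fit on the 2 groups alone (adjusted p = 0.0291). UUO7 against UUO2 was called without UUO2 replicate 2 (0.30, adjusted p = 0.0247) and reached 0.10 with it.

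Ordered by mean level as deposited, neighbouring groups mostly overlapped. Ren1 ran from UUO7 through R1W, R2W, sham and R4W to UUO2, and only R4W and UUO2 did not overlap. Agt ran from UUO2 through UUO7, R2W, R4W and R1W to sham, with a gap only between UUO2 and UUO7. Ace ran from sham through R4W, UUO2, R2W and R1W to UUO7, with a gap only below sham. Mme ran from sham through R4W, R2W, R1W and UUO2 to UUO7, with a gap only between R1W and UUO2. Enpep (highest in R4W, lowest in UUO7), Anpep (highest in sham, lowest in UUO7), Dpp4 (highest in R4W, lowest in sham) and Agtr1a (highest in sham) had overlap between all neighbours. The order depended on the scaling. Rescaled, Agt in sham ranked next after UUO2, above UUO7, R2W, R4W and R1W, Ren1 was highest in R2W, Enpep was highest in sham, Dpp4 was lowest in UUO7, and the gap in Mme lay below sham.

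**Figure D4:**
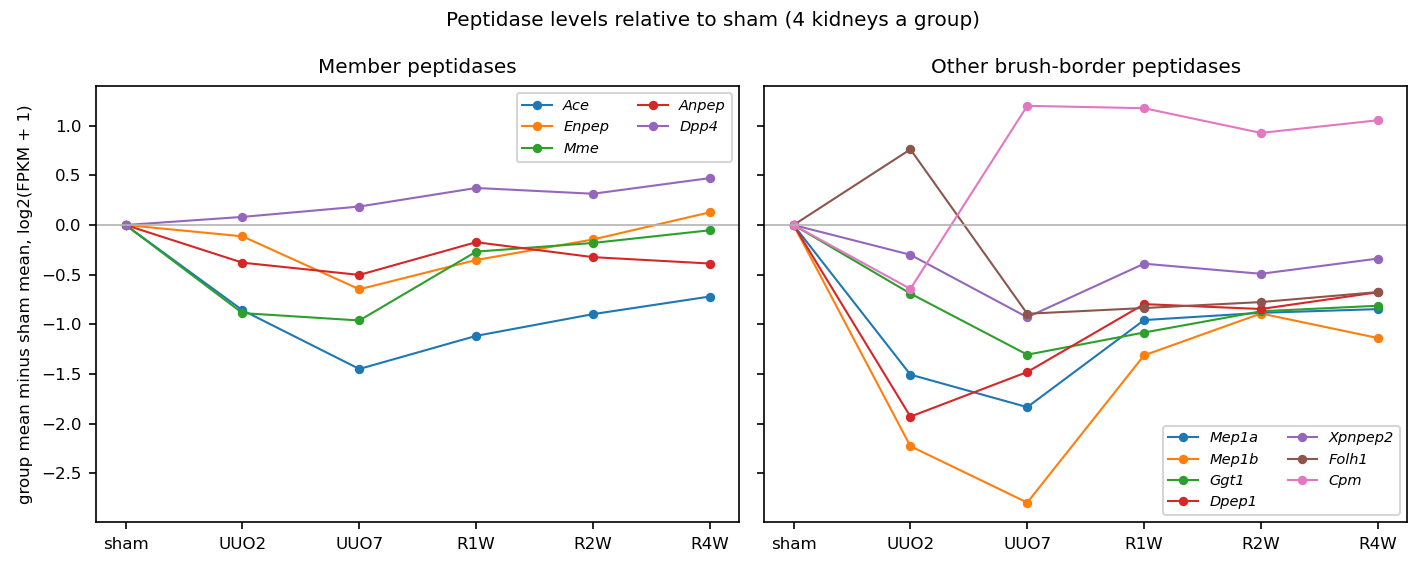
Group mean of log2(FPKM + 1) minus the sham mean (y axis), as deposited, in the 6 groups (x axis) for the 5 member peptidases (left) and 7 other brush-border peptidases (right); each point is the mean of 4 kidneys and lines only join groups. Mme returns to -0.06 at R4W and Ace to -0.72, while Cpm is 1.05 above sham there. Rescaled values, which are not drawn, were -0.42 for Mme and -1.09 for Ace at R4W.

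Other brush-border peptidases were measured for 7 of 9 listed genes. In UUO2 5 of the 7 were called lower than sham and 1 higher (median -0.69; rescaled 6 and 1, median -0.83), where 17.0% of all genes were lower and 32.3% higher (rescaled 25.5% and 25.3%). The gene called higher was Folh1, glutamate carboxypeptidase II, at 29.0 ± 5.36 FPKM beside 16.6 ± 2.69 in sham (0.76, rescaled 0.64), which was then called lower in UUO7 (8.65 ± 2.46 FPKM, -0.89, rescaled -1.34). In UUO7 6 of the 7 were called lower and 1 higher (median -1.30; rescaled 6 and 1, median -1.79), where 17.8% of all genes were lower and 60.1% higher (rescaled 36.5% each). In R4W against sham 5 were lower and 1 higher (median -0.68; rescaled 6 and 1, median -1.05), beside 11.6% and 54.8% of all genes (rescaled 31.1% and 28.9%). Mep1b, a subunit of the metalloprotease meprin, fell from 124 ± 24.5 FPKM in sham to 16.8 ± 1.08 in UUO7 (-2.79, adjusted p = 2.65e-08). Ggt1, which cleaves glutathione, fell from 1008 ± 86.2 to 412 ± 78.9 FPKM (-1.30), and Dpep1, a dipeptidase, from 69.5 ± 4.84 to 24.3 ± 2.51 (-1.48). Mep1a, Mep1b, Ggt1, Dpep1 and Xpnpep2 rose from UUO7 to R4W. Cpm, carboxypeptidase M, was called lower in UUO2 (1.99 ± 0.524 FPKM; -0.64, adjusted p = 0.0306; rescaled -0.77) but higher from 7 days on, from 3.78 ± 1.63 FPKM in sham to 9.68 ± 1.73 in UUO7 (1.20, adjusted p = 0.000112; rescaled 0.80) and 8.59 ± 0.677 in R4W (1.05; rescaled 0.75). Carboxypeptidase M is also made by macrophages, whose 5 markers summed to 39.2 to 62.8 FPKM in sham, 682 to 851 in UUO7 and 574 to 1127 in R4W, and their part in the Cpm values was not tested.

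Other genes of the system were measured for 11 of 18 listed. In UUO2 against sham 7 of 11 were called higher and 1 lower (median 0.23), where 32.3% and 17.0% of all genes were, and rescaled 3 and 1 (median 0.12), against 25.3% and 25.5%. In UUO7 the counts were 6 higher and 2 lower (median 0.20), against 60.1% and 17.8% of all genes, and rescaled 2 and 7 (median -0.26), against 36.5% in each direction. In R4W against sham they were 2 and 1 (median 0.16), against 54.8% and 11.6%, and rescaled 1 and 4 (median -0.20), against 28.9% and 31.1%. Klk1, tissue kallikrein of the distal nephron, fell from 2169 ± 69.6 FPKM in sham to 418 ± 264 in UUO2 and 158 ± 20.8 in UUO7 (-3.78, adjusted p = 1.39e-09) and reached 1466 ± 246 in R4W (3.20 above UUO7). Mas1, the receptor of angiotensin-(1-7), was low throughout, at 1.25 ± 0.375 FPKM in sham and 0.575 ± 0.128 in UUO7 (-0.50, adjusted p = 0.000411; rescaled -0.74). Rnpep, aminopeptidase B, rose to 50.7 ± 2.93 FPKM in UUO7 from 31.1 ± 3.75 (0.69; rescaled 0.22, adjusted p = 0.00446). Atp6ap2, the (pro)renin receptor, and Ctsa were called higher in UUO7 as deposited (0.15 and 0.25) and lower rescaled (-0.32 and -0.23).

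Relatives of the member peptidases that act elsewhere were measured for 7 of 10 listed genes. In UUO7 3 of the 7 were called higher and 0 lower as deposited (median 0.22), where 60.1% and 17.8% of all genes were, and rescaled 1 and 3 (median -0.26), against 36.5% in each direction. The 3 called lower rescaled were Dpp8 (-0.55), Lnpep (-0.38) and Ece1 (-0.33). Erap1, an aminopeptidase of the endoplasmic reticulum, was called higher on both scalings (0.85, rescaled 0.42). Npepps (0.56) and Dpp9 (0.29) were called higher only as deposited (rescaled 0.09 and -0.16). In UUO2 4 were called higher and 1 lower on both scalings (medians 0.32 and rescaled 0.20), against 32.3% and 17.0% of all genes (rescaled 25.3% and 25.5%). In R4W against sham 3 were called higher and 1 lower as deposited (median 0.20), against 54.8% and 11.6%, and rescaled 1 and 1 (median -0.15), against 28.9% and 31.1%. The gene called lower in R4W was Dpp7 (-0.43, rescaled -0.80), which had been called higher in UUO2 (89.3 ± 16.1 FPKM beside 60.3 ± 2.13 in sham; 0.54, rescaled 0.41).

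The genes most like each member over the 24 libraries, by Pearson r of log2(FPKM + 1) among genes averaging 10 FPKM or more, were taken as a description. Ren1 was nearest to Gm17251 (0.912), Esm1 (0.893) and Fuz (0.888), and Agt to the acute-phase gene Saa1 (0.885), Tpd52 (0.855) and Ier3ip1 (0.841). Ace was nearest to Dhrs4 (0.975), Nipsnap1 (0.973) and Ces2c (0.973), and Agtr1a to Nr1h4 (0.702), Nadsyn1 (0.697) and Fbxo7 (0.682). Enpep was nearest to Trpm7 (0.947), Mapk14 (0.936) and Trappc10 (0.932), and Mme to Calb1 (0.932), Slc12a3 (0.928) and Col4a4 (0.922). Calb1 and Slc12a3 are genes of the distal convoluted tubule and Col4a4 a gene of glomerular basement membrane. Anpep was nearest to the respiratory chain genes Ndufv2 (0.886) and Ndufs3 (0.872) and to Atp6v1e1 (0.866), and Dpp4 to Etnk1 (0.813), 1700020I14Rik (0.809) and Snx19 (0.803). Libraries of 1 group share its treatment, so these values carry the group differences.

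In the authors' deposited table, the fold changes of the 8 members against sham were nearer to the rescaled value than to the value on the deposited scale in 38 of 40 cases. How the authors scaled the libraries is not stated, so this nearness is not an independent test of the rescaling. The authors' deposited table gave Ren1 -2.03 in UUO2 and 0.22 (adjusted p = 0.572) in UUO7 against sham, Ace -2.16 in UUO7, and Agt -0.03 (adjusted p = 0.838) in UUO7. For Anpep in UUO7 the authors' deposited table gave -1.65 (adjusted p = 2.08e-61), beside -0.50 and rescaled -0.98 from the FPKM. The same authors' deposited table gave Anpep as higher in R4W than in UUO7 (0.65, adjusted p = 1.21e-12), where the FPKM gave 0.11 and rescaled 0.22. At an adjusted p under 0.05 the authors' deposited table held 7 of the 72 member results that were called on neither scaling here. Besides Anpep in R4W against UUO7, the authors' deposited table had Anpep in R1W against UUO7 (0.50, adjusted p = 0.0115), Dpp4 in UUO7 against sham (-0.33, adjusted p = 0.0199) and Agt in R1W against sham (-0.40, adjusted p = 0.0453). In R4W against sham the authors' deposited table had Ren1 (-0.67, adjusted p = 0.0174), Agt (-0.33, adjusted p = 0.0251) and Enpep (-0.27, adjusted p = 0.0234). Another 7 were called here on 1 of the scalings and not in the authors' deposited table.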

How the data were processed

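Messenger RNA was measured by polyadenylated RNA sequencing in 24 mouse kidneys, with groups and replicate numbers taken from the sample titles. The authors deposited 1 table with 14785 genes and 24 columns of sample values. FPKM was inferred as the unit of the deposited values, because the sum of value times mean transcript length (0.884 to 0.953 of its ideal) varied less between libraries, by a ratio of 1.08, than the plain sum (717415 to 830179, a ratio of 1.16). FastQC, RSEM, Bowtie2, DESeq2 and the build mm10 are named by the submitters' processing notes, without role or version. The table holds no counts, and the smallest gene mean over all libraries is 1.0, so weaker genes are not analysed here. Columns of log2 fold changes and adjusted p-values are the authors', per the file headers, which do not name the test. Their direction was read from their slope against the sample columns. Coordinates are those of the table. Of 14767 genes found in the GENCODE M21 annotation (GRCm38), 92.6% had the same start and end there, all 8 members included.

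The test was limma 3.58.1 (R 4.3.3, eBayes with trend) applied to log2(FPKM + 1) in 1 model of the 24 libraries, with 1 coefficient per group and 9 comparisons, at a Benjamini-Hochberg adjusted p under 0.05. This scale understates changes of low genes. Errors of levels are SD over 4 kidneys, and SE is limma's moderated standard error. Sums, motif searches and figures were made with Python 3.11.15, pandas 2.3.3, numpy 2.4.6 and matplotlib 3.10.9. Depth was implied from whole-read steps among low values of single-transcript genes, with a score limit set after a first scan of these data. It limits the precision of low genes and is unknown for UUO2. Tested on simulated data for UUO7 against sham with 14785 genes of which 200 were changed, the fit called 100 of 100 genes changed by a log2 of 2, 85 of 100 changed by 1, and 9 unchanged genes.

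Same-numbered libraries deviated from their group means with r from -0.331 to 0.451, and in 0 of the 9 comparisons did all 4 pairs exceed 0.1, so the kidneys were analysed as unpaired. In R1W against UUO7 2 of the 4 pairs exceeded 0.1, and a pairing of same-numbered kidneys was not tested further. Alternatives were rescaled libraries, pseudocounts of 0.1 and 10, only genes averaging 5 FPKM or more, fits on the 2 groups compared or without UUO2, the replicate number as a block, R4W replicate 2 placed in R2W, and each replicate left out. A fit without 3 libraries whose summed adipose markers exceed 200 FPKM was chosen after seeing the data. Named genes were the 8 members, measured genes of the lists of other renin-angiotensin genes and brush-border peptidases, and the 3 genes nearest to each member by Pearson r. Akr1b7, Gja4, Gja5 and the relatives that act elsewhere were named outside that rule, from other lists. The members and all lists were chosen with earlier results of these data known. One gene of these lists is not reported here, and the counts leave it out.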

Additional observations from a re-analysis of the deposited data

Results flagged for a closer look

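Each member was checked in each group of 4 for a kidney far from the others, with Dixon's test at its 95% limit. Of 48 checks 4 found one, and chance gives about 1 in 20 groups. Agt was 120 FPKM in UUO2 replicate 2, where the other UUO2 kidneys had 72.2 to 74.0. Agt was 34.1 FPKM in R2W replicate 1, where the others had 45.5 to 47.5. Ace was 54.6 FPKM in sham replicate 2, where the others had 75.2 to 77.2, and the same library held 291 FPKM of adipose markers. Dpp4 was 17.7 FPKM in R1W replicate 2, where the others had 12.4 to 13.2.

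In 6 cases among the members the effects of 2 groups against sham differed by a test of the difference itself. Between 7 and 2 days of obstruction the difference was 2.46 for Ren1, -0.71 for Agt, -0.59 for Ace and -0.53 for Enpep on the log2 scale, and all 4 were also called rescaled. These 4 rest on the UUO2 libraries, which differ from the other 20 in ways that cannot be told apart from the group. Between 4 weeks and 1 week of recovery the difference was -0.95 for Ren1 and 0.48 for Enpep. Without the 3 libraries high in adipose markers neither was called, at -0.69 (adjusted p = 0.155) and 0.51 (adjusted p = 0.128).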

How the results depend on the processing

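Of 72 results on single members (8 genes in 9 comparisons), 72 kept direction and call with a pseudocount of 0.1 and 72 when only genes averaging 5 FPKM or more were tested, 71 with a pseudocount of 10, 71 with the replicate block, 66 in fits on the 2 groups compared, 66 with R4W replicate 2 placed in R2W, 62 without the libraries high in adipose markers, where 9 calls were lost, and 38 with rescaled libraries. In the comparisons without UUO2, leaving its libraries out kept 53 and added 3 calls. With the replicate number as a block 1 call was lost, Anpep in R4W against sham (-0.39, adjusted p = 0.0604). For each change below the cause was not tested, although fits without a library hold fewer samples. Rescaling reversed Dpp4 in UUO2 (-0.05), UUO7 (-0.26), R1W (-0.05) and R2W (-0.05) against sham and in UUO7 against UUO2 (-0.22). It reversed Agt in UUO7 (-0.01), R1W (-0.40), R2W (-0.14) and R4W (-0.32) against sham, Enpep in R4W against sham (-0.24), and Ren1 in R1W against UUO7 (0.02). It reversed Agtr1a in UUO7 against UUO2 (-0.30), R1W against UUO7 (0.03), R4W against UUO7 (0.03) and R4W against R1W (0.0035). Of these 15, Agtr1a in UUO7 against UUO2 was called. With R4W replicate 2 placed in R2W, Agt was -0.06 in R4W against sham and -0.10 in R4W against R1W. Members called in UUO7 against UUO2 were 7 rescaled. In R2W against sham they were 5 rescaled, 3 in the fit on the 2 groups, 3 with R4W replicate 2 placed in R2W, 2 without UUO2 and 2 without the libraries high in adipose markers. Without those libraries they were 3 in R4W against UUO7, 2 in R1W against sham, 1 in R4W against sham and 0 in R4W against R1W, where limma had 2 members at an unadjusted p under 0.05. The fit on the 2 groups also gave 0 members in R4W against R1W (2 at an unadjusted p under 0.05), and moving R4W replicate 2 to R2W gave 1. In that comparison 748 genes were called higher and 2082 lower as deposited, and both directions together became 161 in the fit on the 2 groups and 332 without the libraries high in adipose markers. Across the 8 fits that each left out 1 replicate, 1116 to 2535 genes were called in R1W against UUO7 and 728 to 3491 in R4W against R1W. The first fell by more than 1.5 times without UUO7 replicate 1 (1345), 3 (1281) or 4 (1331) or R1W replicate 1 (1372) or 4 (1116), and the second without R1W replicate 3 (728) or R4W replicate 1 (1609) or 4 (1603). The number of members called was 1 to 2 in R1W against UUO7, 2 to 4 in R1W against sham, 1 to 4 in R2W against sham and 0 to 2 in R4W against R1W. In the same fits small differences changed sign: Dpp4 in UUO2 against sham (-0.11 to 0.17), Agtr1a (-0.03 to 0.08) and Mme (-0.20 to 0.06) in UUO7 against UUO2, and Ren1 (-0.20 to 0.13) and Agtr1a (-0.06 to 0.05) in R1W against UUO7. So did Agtr1a in R4W against UUO7 (-0.12 to 0.01), Agt (-0.07 to 0.17) and Anpep (-0.29 to 0.01) in R1W against sham, Agt (-0.06 to 0.13) and Mme (-0.11 to 0.00061) in R4W against sham, and Agt (-0.13 to 0.12) and Agtr1a (-0.12 to 0.01) in R4W against R1W. Depth is unknown for the 4 UUO2 libraries, so their counting error could not be given.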

Other observations

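In 3 of the 6 groups 1 kidney held the highest or lowest value for 7 or 8 of the 8 members. In UUO7, R1W and R4W no kidney did so for more than 5, and R1W replicate 2 was highest for 3 members and lowest for 4. In UUO2, replicate 2 had the highest value of its group for 8 of 8 members. Its proximal tubule markers summed to 2849 FPKM, beside 1665 to 2000 in the other UUO2 kidneys, and its Klk1 was 811 FPKM beside 242 to 321. In sham, replicate 2 had the lowest value for 7 of 8 members, with a proximal tubule sum of 3846 FPKM beside 3982 to 4379 and a summed level of 4 urothelium markers of 30.4 FPKM beside 1.42 to 2.17. In R2W, replicate 1 was lowest for 7 of 8 members, with a macrophage marker sum of 1620 FPKM beside 656 to 1327 and a proximal tubule sum of 1537 FPKM beside 1417 to 2601. Each count is of members in 1 library, which share its scaling.

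Markers of other kidney cell types were counted against sham. In UUO2 1 of 5 podocyte genes was called higher and 3 lower (median -0.64; rescaled 0 and 3), 0 of 5 endothelial genes higher and 3 lower (median -0.56; rescaled 0 and 5), and 4 of 8 mural and mesangial genes higher and 3 lower (median 0.30; rescaled 3 and 3), where 32.3% of all genes were higher and 17.0% lower (rescaled 25.3% and 25.5%). Fibroblast genes were 2 of 5 higher in UUO2 (median 0.44), and the T cell, adipose and urothelium lists had medians of 0.08, -0.71 and -0.81 there, with no gene called by limma (lowest adjusted p = 0.0720, for Cd8a). As deposited, in UUO7, 4 of 5 podocyte genes, 4 of 5 endothelial genes, 5 of 5 fibroblast genes and 5 of 5 T cell genes were called higher, and in R4W 5 of 5 of each. Of all genes 60.1% were called higher in UUO7 and 54.8% in R4W as deposited, and 36.5% and 28.9% rescaled. Rescaled, 2 podocyte and 3 endothelial genes were called higher in UUO7, and 4 endothelial genes in R4W. Of the 8 mural and mesangial genes 7 were called higher in UUO7 (median 1.16) and 8 in R4W (median 1.21). On rescaled libraries 7 were higher in each and 1 was lower in UUO7, with medians of 0.78 and 0.91. Of 4 genes of the last segment of the proximal tubule, 4 were called lower in UUO7 (median -2.30) and 4 in R4W (median -1.07), and the same counts rescaled, where 17.8% and 11.6% of all genes were lower as deposited and 36.5% and 31.1% rescaled. Of 4 urothelium genes 1 was called higher in UUO7 (median 1.03) and 4 in R4W (median 3.02), and of 5 adipose genes 1 was called higher in each (medians -0.71 and 1.68). Rescaled, the 4 urothelium calls in R4W stood, whereas limma no longer called Upk1b in UUO7 (adjusted p = 0.0546) or the adipose gene Fabp4 in UUO7 (adjusted p = 0.183) and R4W (adjusted p = 0.157). The part of these cell types in the levels of the members was not tested.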
